A study of Mus musculus with 8 samples.

Results

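The apical sodium transporters of the renal tubule were followed through 6 genes, Slc9a3, Slc12a1, Slc12a3, Scnn1a, Scnn1b and Scnn1g, which were found by their symbols among the 32285 genes of single-nucleus RNA-seq count tables from mouse kidney. Each gene's level was measured in every segment of the tubule, in each genotype and at each time of day. All mice were males on the C57BL/6J background with Bmal1lox/lox alleles. Control mice (Ctrl) carried no other transgene, and their littermates with a clock disrupted in the renal tubule (cKOt) also carried Pax8-rtTA and LC-1, which together drive Cre in the renal tubule once doxycycline is given. Both genotypes drank water with doxycycline (2 mg/ml) and sucrose (20 mg/ml) for 2 weeks from 8 weeks of age and lived under a 12-h light and 12-h dark cycle. Kidneys were taken at ZT4, in the light phase, or at ZT16, in the dark phase, from 2 mice per genotype and time point, which gave 8 libraries. The sections held cortex, outer medulla and inner medulla.

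Most filtered sodium is taken back along the tubule by one carrier after another in the luminal membrane, each driven by the sodium gradient across it. NHE3 (Slc9a3) exchanges sodium for protons in the proximal tubule and the thick ascending limb. NKCC2 (Slc12a1), the target of loop diuretics, carries sodium, potassium and chloride in the thick ascending limb and the macula densa, and NCC (Slc12a3), the target of thiazides, carries sodium and chloride in the distal convoluted tubule. The epithelial sodium channel ENaC is built of an α, a β and a γ subunit (Scnn1a, Scnn1b and Scnn1g), is blocked by amiloride, and acts under aldosterone from the late distal convoluted tubule to the collecting duct.

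The promoters of Slc9a3, Scnn1b and Scnn1g are printed because the first of these genes carries a clock motif near its start and the other 2 are neighbours in the genome that had the most similar patterns among the members. Each run holds 250 bases before and 50 bases after the start in RefSeq's annotation of GRCm38.p6, on the plus strand, and capitals mark a motif found on either strand.
Slc9a3, chr13:74121163-74121462: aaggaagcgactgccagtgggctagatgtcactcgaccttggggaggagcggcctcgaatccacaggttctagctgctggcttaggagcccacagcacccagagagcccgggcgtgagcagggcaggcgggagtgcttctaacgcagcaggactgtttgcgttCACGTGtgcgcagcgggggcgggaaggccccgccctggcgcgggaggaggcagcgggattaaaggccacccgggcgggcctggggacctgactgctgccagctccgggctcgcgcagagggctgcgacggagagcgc
Scnn1b, chr7:121864788-121865087: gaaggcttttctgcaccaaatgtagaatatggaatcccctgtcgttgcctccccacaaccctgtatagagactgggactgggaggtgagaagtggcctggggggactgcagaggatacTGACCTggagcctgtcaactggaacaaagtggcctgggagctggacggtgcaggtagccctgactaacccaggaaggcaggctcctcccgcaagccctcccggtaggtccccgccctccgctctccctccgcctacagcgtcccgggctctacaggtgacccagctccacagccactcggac
Scnn1g, chr7:121734229-121734528: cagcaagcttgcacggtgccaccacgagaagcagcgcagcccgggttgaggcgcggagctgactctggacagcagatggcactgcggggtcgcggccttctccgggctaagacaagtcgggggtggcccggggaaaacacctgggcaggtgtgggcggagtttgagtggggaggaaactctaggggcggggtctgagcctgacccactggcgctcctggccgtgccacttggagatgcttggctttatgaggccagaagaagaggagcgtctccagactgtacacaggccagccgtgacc
The E-box CACGTG, a motif bound by BMAL1 with its partner CLOCK, began 87 bases before the start of Slc9a3 and was held by 7.15% of 32851 RefSeq promoters of the same length. The sequence AGGTCA, bound by REV-ERB and ROR receptors, lay on the reverse strand of the Scnn1b window, 132 bases before the start, and was held by 16.3% of promoters. The D-box TTATGTAA (0.938% of promoters) and the palindromic glucocorticoid response element (0.00913%) were in none of the windows of Slc9a3, Slc12a1, Slc12a3, Scnn1b and Scnn1g. Scnn1a was not matched. These matches describe letters in the windows and are not sites of binding.

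Of 82784 deposited barcodes, 81391 nuclei were kept, with between 36548873 and 54500820 unique molecular identifiers (UMIs, each a counted transcript molecule) per library, and 823 of 80565 distinct barcodes occurred in more than 1 library. Within every group the counts of the 2 mice lay far outside sampling noise of one another. Clusters were named from markers with the members left out, and 77070 nuclei fell into 21 classes. Arntl (Bmal1), the targeted gene, had 33.1 to 39.2 CPM in Ctrl ZT4, 157 to 160 CPM in Ctrl ZT16, 203 to 288 CPM in cKOt ZT4 and 258 to 294 CPM in cKOt ZT16 libraries. It was higher in every library labelled cKOt, and counts per gene do not tell the deleted stretch from the rest, so its level does not check the deletion. Over 8 clock genes, 40 of 74 tests over 10 segments passed for time in Ctrl mice, beside 0.505% of all gene and segment tests, and 3 of 64 in cKOt mice, beside 0.172%. In Ctrl mice 20 calls of Arntl, Npas2, Cry1 and Per2 were upward at ZT16 and 20 of Dbp, Nr1d1, Nr1d2 and Per3 downward.

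Levels are given as CPM, UMIs of the gene per 1000000 UMIs of protein-coding genes in the nuclei of one class and library, with the mean and SD over the 4 Ctrl libraries. Differences between classes are described and not tested, since the classes were themselves made from expression. Genes were set side by side only as ratios of UMIs or each against its own vascular level, since the counts are not per length. RNA free in the suspension gives UMIs in nuclei that do not express a gene, so each level was set beside that in vascular nuclei (Vasc), which should lack all members. Their median of 2077 UMIs per nucleus was below that of the tubule classes, for example 3841 in the thick ascending limb (TAL).

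**Figure D1:**
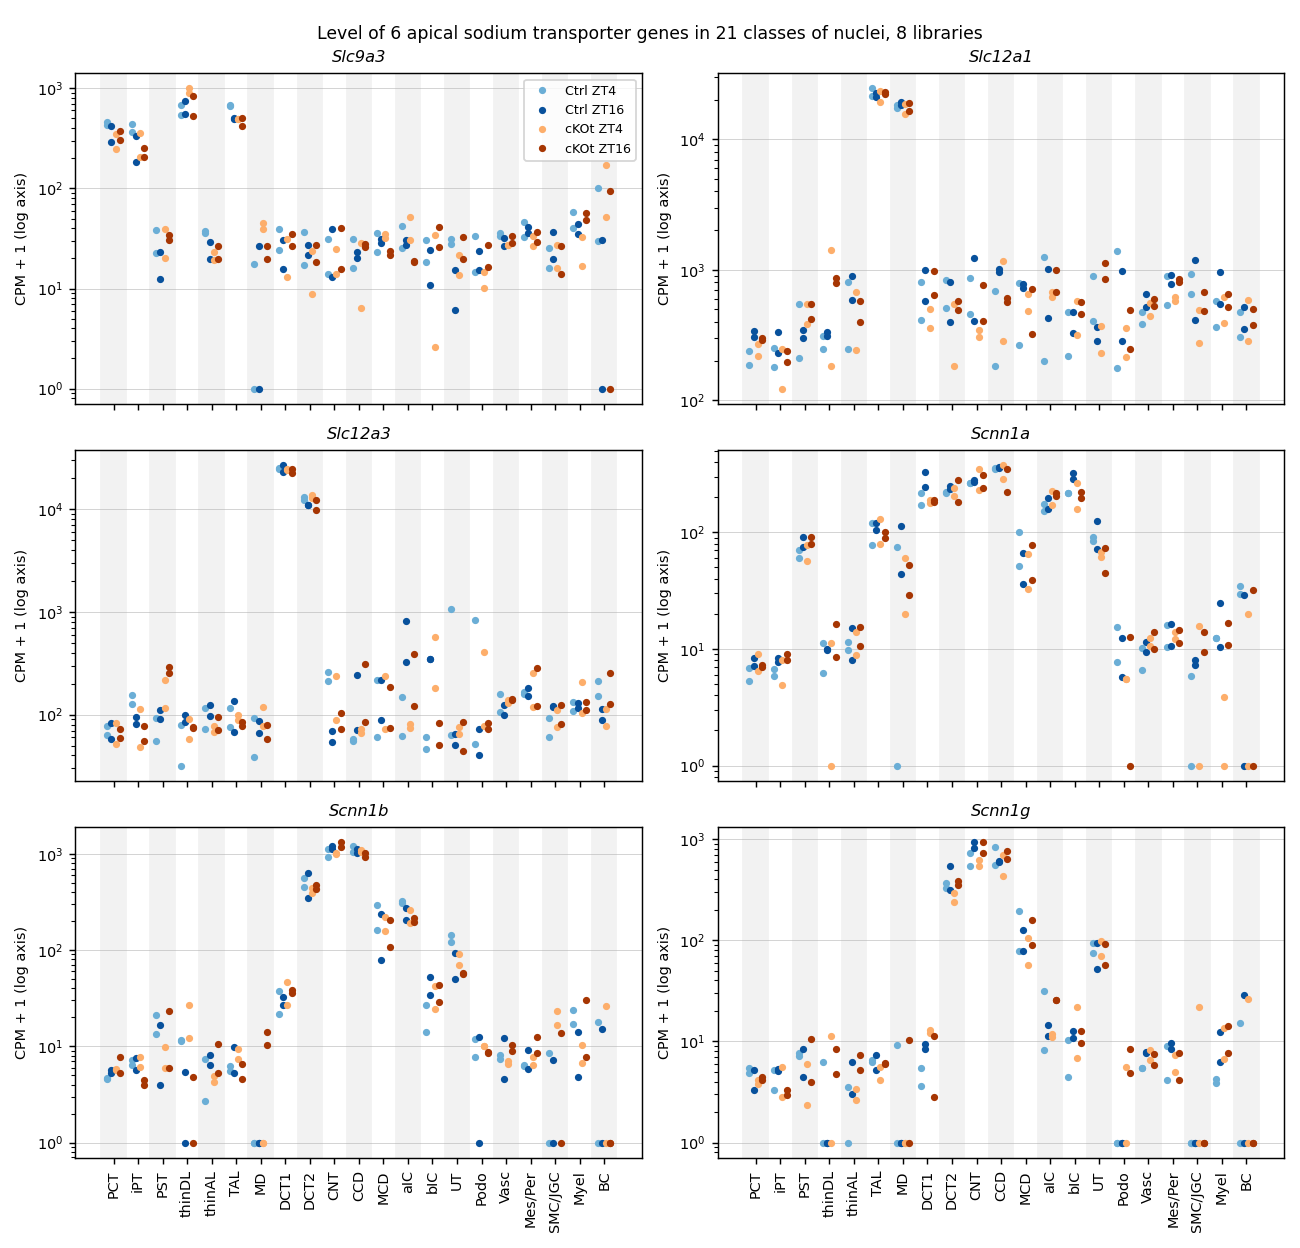
CPM + 1 (log axis) of each member in 21 classes of nuclei, ordered from the proximal tubule to the collecting duct and then other cells, 1 point per library and 1 colour per group. Slc12a1 stood out in TAL and MD and Slc12a3 in DCT1 and DCT2, Scnn1b and Scnn1g peaked in CNT and CCD, and Scnn1a was spread over the widest range of distal classes.

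Slc9a3 (ENSMUSG00000036123), which encodes NHE3, had its highest levels in the cluster named thin descending limb (thinDL), the TAL and the proximal tubule. It measured 627 ± 98.9 CPM in thinDL (SD, n = 4), 586 ± 103 CPM in TAL and 397 ± 71.5 CPM in the proximal convoluted tubule (PCT). The ranges of thinDL and TAL overlapped over the 4 Ctrl libraries, whereas those of TAL and PCT did not. An intermediate proximal class (iPT), which shared markers with the proximal straight tubule (PST) but had little of the PST marker Cyp7b1, held 330 ± 106 CPM and overlapped with PCT. In the PST itself the level was 23.2 ± 10.8 CPM, beside 31.1 ± 4.21 CPM in vascular nuclei. PST nuclei had a median of 7216 UMIs and vascular nuclei 2077. Of the Slc9a3 UMIs in PST over all libraries, 50.2% were in nuclei called doublets, which were 10.1% of PST nuclei. Whether the PST level was background was not tested. The drop lay between clusters: the 5 iPT clusters had 226 to 436 CPM, and the 2 PST clusters had 20.9 and 32.4 CPM. All 5 iPT clusters scored best for PST, and their separation from PST was set after the clusters were seen. The low PST level depends on this separation.

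The thinDL class was small, with 425 nuclei in 1 cluster and 34 to 71 nuclei per library, and was led by Fst, Lypd2 and Bst1. It rested on 4 of 5 markers. A pair of unnamed clusters, of 1171 and 835 nuclei, also scored best for thinDL but passed only 2 of these 5 markers. This pair had 23.1 and 20.1 CPM of Slc9a3. The thinDL markers Aqp1 and Bst1 were among the leading genes of the unnamed cluster of 1171 nuclei. The level given for thinDL is therefore that of the named cluster alone. In each of the 8 libraries thinDL had 522 CPM or more. In the macula densa (MD), which borders the TAL, the 183 nuclei held 14 Slc9a3 UMIs in all.

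By share of all Slc9a3 UMIs in a Ctrl library, the TAL held 31.9% ± 6.11, PCT 28.6% ± 4.83, iPT 28.1% ± 3.89 and thinDL 1.39% ± 0.597. Within the TAL, the cluster with the most Cldn16, a claudin of its cortical part, had 639 CPM of Slc9a3 over 8 libraries and the other 3 clusters 439 to 531 CPM. After each nucleus was thinned to 1000 UMIs, Slc9a3 was seen in 35.7% ± 3.96 of TAL nuclei, 35.0% ± 3.07 of thinDL nuclei and 27.2% ± 5.11 of PCT nuclei, against 2.79% ± 0.526 of vascular nuclei. Without thinning the shares were 72.6%, 70.8%, 66.7% and 5.82%. Slc9a3 overlaps Exoc3 on the other strand. Whether the counting used strand was not stated, and mixing of reads between the 2 genes was not tested.

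Slc12a1 (ENSMUSG00000027202), which encodes NKCC2, was highest in the TAL. Its level there was 22587 ± 1537 CPM and in the MD, the sensor of luminal chloride at the end of the TAL, 18360 ± 790 CPM, with ranges that did not overlap over the Ctrl libraries. Every other class had 789 CPM or less, and Vasc had 505 ± 111 CPM, so the next class in order was 23.3-fold below MD. The TAL held 84.6% ± 1.07 of the gene's UMIs, and the MD 1.15% ± 0.583. Of thinned nuclei, 99.98% in the TAL and 35.3% ± 5.91 in Vasc carried an Slc12a1 UMI, so that 1 UMI of this abundant transcript does not mark a nucleus that expresses it. A lncRNA gene, Gm14002, overlaps Slc12a1 on the other strand.

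Among the 4 TAL clusters Slc12a1 and Slc9a3 did not have the same order. The Cldn16 cluster, highest for Slc9a3, was lowest for Slc12a1 with 20155 CPM, and the cluster with 24735 CPM of Slc12a1 was lowest for Slc9a3 with 439 CPM. Scnn1a also differed: its 4 TAL clusters had 58.8, 76.5, 140 and 146 CPM. The library ranges of the Cldn16 cluster and the cluster with the most Slc12a1 overlapped for Slc12a1 and for Slc9a3. For Scnn1a, the largest TAL cluster (39.4 to 93.8 CPM over libraries) did not overlap with the Cldn16 cluster (110 to 186 CPM).

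Slc12a3 (ENSMUSG00000031766), which encodes NCC, reached 24897 ± 1631 CPM in DCT1, the early distal convoluted tubule, and 11872 ± 1113 CPM in DCT2, its late part. The ranges did not overlap, and DCT1 was 2.10-fold higher. Vasc had 121 ± 25.6 CPM and every class other than DCT1 and DCT2 had 336 CPM or less on average. DCT1 held 67.3% ± 2.79 of the UMIs and DCT2 22.4% ± 2.96. In single nuclei the intermediate level of DCT2 was an average over nuclei of unlike content: 964 of 1745 DCT2 nuclei (55.2%) had at least 40 Slc12a3 UMIs per 10000 UMIs, 700 (40.1%) had fewer than 5, and 81 (4.64%) lay between. In DCT1 99.7% of 2447 nuclei were in the high range, and in the connecting tubule (CNT) 97.3% of 1401 nuclei were in the low range. The limits of 5 and 40 were set after the values were seen. Low-range DCT2 nuclei had 85.2 ± 17.5 CPM of Slc12a3 over 8 libraries, below the 121 CPM of Vasc. The DCT2 cluster was named without Slc12a3, and whether its low-range nuclei belong to DCT2 or to CNT was not tested. A level of any member for DCT2 as a whole averages over both ranges.

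**Figure D2:**
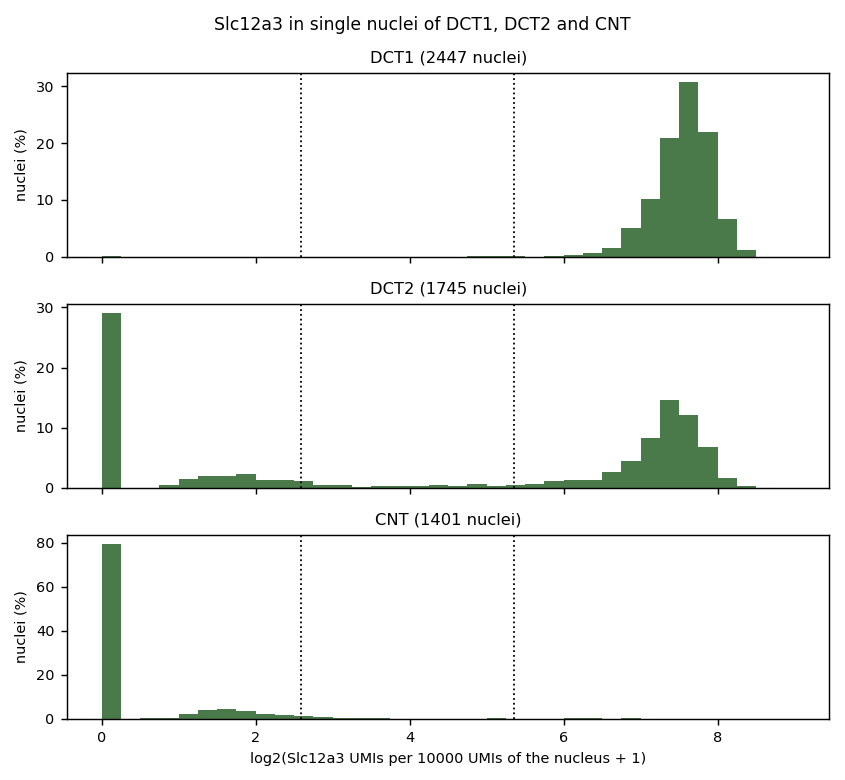
Share of nuclei (%) by log2(Slc12a3 UMIs per 10000 UMIs of the nucleus + 1) in DCT1, DCT2 and CNT, all 8 libraries pooled, with dotted lines at 5 and 40 UMIs per 10000. DCT1 had 1 high peak, CNT lay at the low end, and DCT2 had nuclei at both ends with 81 of 1745 nuclei between the lines.

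The ENaC subunits and markers of neighbouring segments differed along the same division of DCT2. From the high to the low range Hsd11b2, a CNT and CCD marker, went from 17.1 to 198 CPM. The DCT1 marker Egf went from 1068 to 158 CPM and Trpm6, a marker of DCT1 and DCT2, from 1869 to 975 CPM. Klk1, a DCT2 marker, went from 551 to 1536 CPM, beside 406 CPM in CNT nuclei of the low range. Calb1 and Trpv5, markers of both DCT2 and CNT, went from 3529 to 1973 CPM and from 160 to 218 CPM. Slc8a1, Calb1 and Trpv5 were the DCT2 markers among the 10 leading genes of the DCT2 cluster, and all 3 were CNT markers too. Over the 8 libraries, DCT2 nuclei of the high range had 20358 ± 1564 CPM of Slc12a3, 288 ± 56.5 CPM of Scnn1b and 165 ± 51.1 CPM of Scnn1g (SD, n = 8). Nuclei of the low range had 85.2 ± 17.5 CPM of Slc12a3, 733 ± 163 CPM of Scnn1b and 622 ± 132 CPM of Scnn1g. The lowest library of the low range, 509 CPM for Scnn1b and 464 CPM for Scnn1g, was above the highest library of the high range, 358 and 240 CPM. Scnn1a overlapped, with 217 ± 30.6 CPM in the high and 250 ± 45.9 CPM in the low range. High nuclei still carried β and γ subunit transcripts above DCT1, where Scnn1b had 28.6 ± 6.95 CPM and Scnn1g 5.76 ± 2.71 CPM. Doublets were called in 2.49% of the high and 3.71% of the low nuclei.

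Scnn1a (ENSMUSG00000030340), the α subunit, was highest in principal cells of the cortical collecting duct (CCD) with 355 ± 5.99 CPM, and next in CNT with 270 ± 8.20 CPM, without overlap. The β-intercalated cells (bIC, 259 ± 51.6 CPM), DCT1 (239 ± 64.5 CPM) and DCT2 (230 ± 14.2 CPM) followed and each overlapped its neighbour in this order. The α-intercalated cells (aIC) had 170 ± 20.7 CPM, TAL 105 ± 19.5 CPM, PST 72.7 ± 12.9 CPM and principal cells of the medullary collecting duct (MCD) 62.6 ± 27.3 CPM. Vascular nuclei had 8.40 ± 2.06 CPM and PCT 5.98 ± 1.28 CPM. The α subunit was thus measured above the vascular level in PST, TAL, DCT1 and bIC, where the γ subunit was near it: Scnn1g had 5.92 ± 1.74 CPM in PST, 5.34 ± 0.874 CPM in TAL, 5.76 ± 2.71 CPM in DCT1 and 8.54 ± 3.53 CPM in bIC beside 5.6 ± 1.33 CPM in Vasc. Because the TAL is so large it held 22.3% ± 2.64 of all Scnn1a UMIs, more than CNT (7.17% ± 1.54) and CCD (8.17% ± 1.71) together.

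Scnn1b (ENSMUSG00000030873), the β subunit, had 1094 ± 83.8 CPM in CCD and 1090 ± 113 CPM in CNT, which overlapped fully. DCT2 followed with 497 ± 126 CPM, aIC with 276 ± 52.3 CPM and MCD with 191 ± 92.1 CPM, and CNT, DCT2 and aIC did not overlap with one another. Urothelium (UT) had 101 CPM, bIC 30.8 ± 15.8 CPM, DCT1 28.6 ± 6.95 CPM and Vasc 7.1 ± 3.15 CPM. In aIC the Scnn1g level was 15.5 ± 10.5 CPM, and for each Scnn1b UMI they had 0.0560 ± 0.0317 Scnn1g UMIs, against 0.687 ± 0.106 in CNT, 0.592 ± 0.0737 in CCD and 0.786 ± 0.110 in DCT2. In DCT1, with less of the β subunit, the ratio was 0.204 ± 0.101, and in bIC, with 20 Scnn1g UMIs in the Ctrl libraries, it ran from 0.133 to 0.714 and overlapped with CNT, CCD and DCT2. These are ratios of UMIs, not of transcripts per length. In aIC 51.7% ± 5.32 of nuclei carried an Scnn1b UMI (18.8% ± 5.55 thinned), beside 1.17% ± 0.497 of vascular nuclei. Scnn1b overlaps Cog7 on the other strand, and whether their reads were mixed was not tested.

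Scnn1g (ENSMUSG00000000216), the γ subunit, had 753 ± 163 CPM in CNT and 651 ± 126 CPM in CCD, which overlapped, then 388 ± 108 CPM in DCT2, 118 ± 54.4 CPM in MCD and 78.0 CPM in UT. CCD did not overlap with DCT2, nor DCT2 with MCD. All other classes were at 15.5 CPM or less. Of the gene's UMIs 27.6% ± 1.35 came from CNT, 23.3% ± 5.69 from DCT2, 21.3% ± 5.25 from CCD and 12.2% ± 2.72 from MCD. All 3 subunits were seen in the same nucleus in 47.4% ± 7.78 of CNT, 47.2% ± 13.2 of CCD and 29.5% ± 9.13 of DCT2 nuclei in Ctrl libraries, which fell to 6.78% ± 2.08, 5.05% ± 1.89 and 2.56% ± 1.59 when each nucleus was thinned to 1000 UMIs. In aIC the share was 1.23% ± 0.584 before thinning.

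The MCD was made of 2 clusters that differed in all subunits over 8 libraries. Its smaller cluster, of 1307 nuclei, had 135 CPM of Scnn1a, 424 CPM of Scnn1b and 258 CPM of Scnn1g. Its larger cluster, of 2347 nuclei, had 11.2, 34.4 and 20.6 CPM. The library ranges did not overlap for any subunit: for Scnn1b they ran from 255 to 641 CPM in the smaller and from 18.2 to 72.8 CPM in the larger cluster. The smaller cluster held 30.2% to 41.7% of the MCD nuclei of a group, and a level for the MCD as a whole averages over both clusters. In naming, the smaller cluster had a mean z of 3.42 for MCD markers and 3.02 for CCD markers. The larger cluster had 3.91 and 2.16. Mcoln3, Mgat4c and Col26a1 were among the leading genes of the smaller MCD cluster and also of the CCD cluster.

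**Figure D3:**
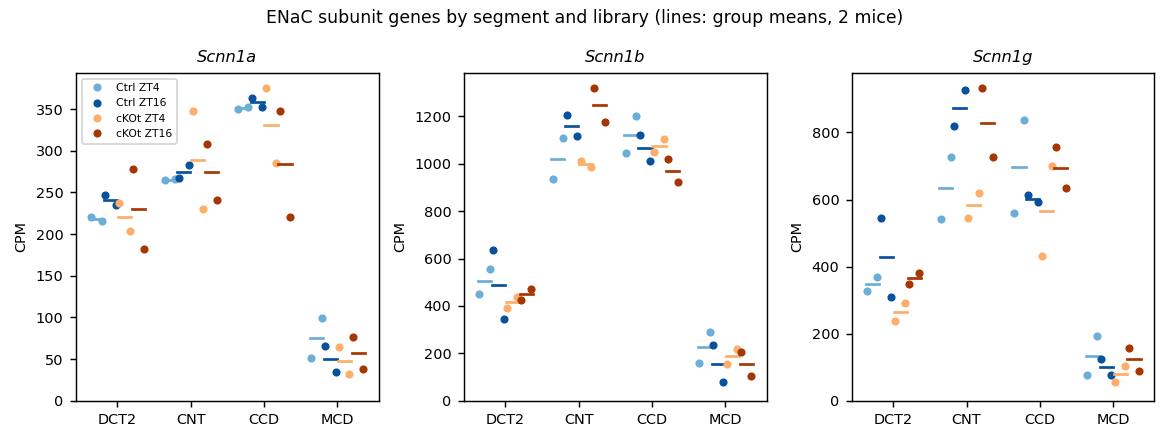
CPM of Scnn1a, Scnn1b and Scnn1g in DCT2, CNT, CCD and MCD, 1 point per library, with lines at the means of the 2 mice of a group. In CNT the ZT16 libraries had 727 to 933 CPM of Scnn1g and the ZT4 libraries 541 to 727 CPM.

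Genes whose levels over the 21 classes were most like each member's, by Pearson's r of log2(CPM + 1) of Ctrl means among 11843 genes, are given as a description. The points share libraries and free RNA. Scnn1b and Scnn1g were each other's closest gene, with r = 0.90, and lie near one another with 2 genes and no protein-coding gene between them. Next for Scnn1b came Fanca (0.90) and Cog7 (0.89), which overlaps it, and for Scnn1g Hsd11b2 (0.90), the enzyme that shields the mineralocorticoid receptor from cortisol and corticosterone, which was itself a marker of CNT and CCD, and Cog7 (0.87). For Scnn1a they were Kcnq1, a potassium channel (0.91), Oprm1 (0.89) and Ipcef1 (0.88), and its r with Scnn1b was 0.725. For Slc12a3 they were Sall3 (0.89), the magnesium channel gene Trpm6 (0.89), which was a marker of DCT, and Tsc22d2 (0.87). For Slc12a1 they were Enox1 (0.91), a TAL marker, Tenm2 (0.90) and the potassium channel gene Kcnn2 (0.87). Slc9a3 had the least close match, Car14 (0.76), a membrane-bound carbonic anhydrase, followed by Enpp2 (0.75) and Tinag (0.74).

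Effects of time and genotype were tested for 20 pairs of a member and a segment in which it is known to act, in sums of UMIs per library, by edgeR's quasi-likelihood test with Benjamini-Hochberg adjustment over all protein-coding genes of the segment. The pairs included Slc9a3 in PST, where its level was below that of vascular nuclei, and left out Slc9a3 in iPT and Scnn1a in DCT1. Of the 20 pairs, none passed an adjusted p of 0.05 for ZT16 against ZT4 in Ctrl mice, for which 0.505% of all gene and segment tests passed, nor in cKOt mice (0.172% of all). No pair passed for cKOt against Ctrl at ZT4 (0.385% of all) or at ZT16 (0.203% of all). 1 pair passed for time averaged over both genotypes (1.3% of all), none for genotype averaged over both times (0.733% of all) and none for the interaction of genotype and time (0.0262% of all). At an unadjusted p under 0.05 there were, in this order, 3, 3, 4, 1, 4, 2 and 0 pairs, of which Slc9a3 in PST was 1 of the 3 for time in Ctrl mice and the single pair for genotype at ZT16. DESeq2 called 0, 0, 0, 0, 1, 0 and 0. The median SE of the log2 difference of a pair was 0.14 for the averaged contrasts and 0.20 within a genotype or time. No member was called in whole-kidney sums, where fewer nuclei of a segment and less RNA per nucleus cannot be told apart. Of all genes there, 0.142% and 0% passed for time in Ctrl and cKOt mice, 0.446% and 0.174% for genotype at ZT4 and ZT16, 0.544% for time and 0.948% for genotype on average, and 0.0183% for the interaction. Whole-kidney tests with an unadjusted p under 0.05 numbered 0, 1, 0, 0, 1, 0 and 1 of 6, and DESeq2 called none. The 2 comparisons of one genotype or of one time share libraries with the averaged ones.

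**Figure D4:**
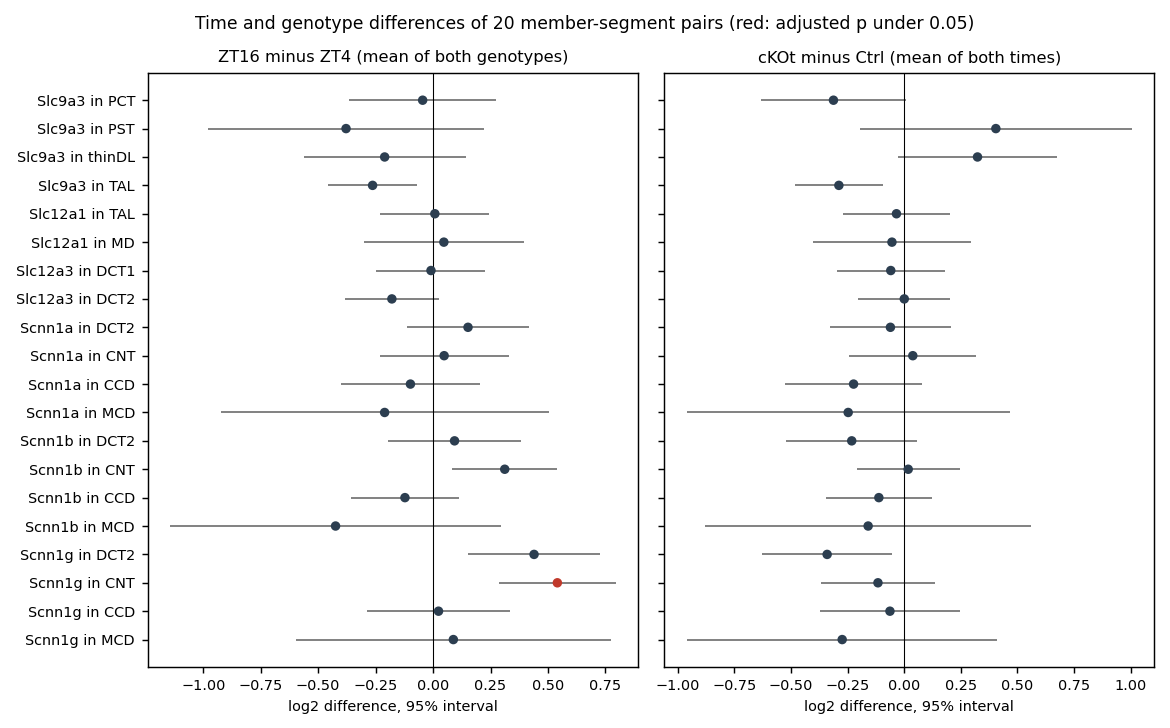
Log2 differences with 95% intervals of the 20 pairs, on the left for ZT16 minus ZT4 averaged over genotypes and on the right for cKOt minus Ctrl averaged over times; red marks an adjusted p under 0.05. Scnn1g in CNT, with 0.54, is the red point, and Slc12a1 in TAL and Slc12a3 in DCT1 lie within 0.06 of 0.

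Scnn1g in CNT was higher at ZT16. At ZT4 it measured 541 and 727 CPM in Ctrl and 544 and 621 CPM in cKOt libraries, and at ZT16 it measured 818 and 927 CPM in Ctrl and 933 and 727 CPM in cKOt libraries. The groups did not overlap within either genotype, and across genotypes a ZT4 and a ZT16 library met at 727 CPM. The averaged log2 difference was 0.54 ± 0.12 (SE, 95% interval 0.29 to 0.79, 1.45-fold) with an adjusted p of 0.0183 in edgeR, in a contrast and segment where 0.896% of 10043 genes passed upward. The call was lost without replicate 1 of Ctrl ZT4, replicate 1 of cKOt ZT4, replicate 2 of Ctrl ZT16 or replicate 1 of cKOt ZT16, while over all alternatives the difference lay between 0.45 and 0.67 and the highest adjusted p was 0.164. Within Ctrl mice the difference was 0.49 ± 0.18 and within cKOt mice 0.59 ± 0.17, neither called (adjusted p of 0.303 and 0.160 by edgeR). Summed markers of the TAL in CNT nuclei, a measure of free or foreign RNA, had 357 to 685 CPM at ZT4 and 373 to 1096 CPM at ZT16, and those of vascular cells 113 to 326 and 147 to 208 CPM. These ranges overlapped, and their part in the result was not tested.

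The other subunits in CNT had smaller differences. Scnn1b had 934 and 1107 CPM in Ctrl ZT4, 1205 and 1115 CPM in Ctrl ZT16, 1010 and 985 CPM in cKOt ZT4 and 1320 and 1177 CPM in cKOt ZT16 libraries, so that no ZT4 library reached the lowest ZT16 library. Its averaged time difference of 0.31 ± 0.11 was not called (adjusted p = 0.182, edgeR). Scnn1a had 230 to 348 CPM at ZT4 and 241 to 308 CPM at ZT16, with a difference of 0.05 and a 95% interval from -0.23 to 0.33. In CCD the averaged time differences were 0.02 for Scnn1g (-0.29 to 0.33), -0.12 for Scnn1b (-0.36 to 0.11) and -0.10 for Scnn1a (-0.40 to 0.20). Whether Scnn1g differed more by time in CNT than in CCD was not tested. In MCD the intervals were wide, from -0.60 to 0.77 for Scnn1g.

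In DCT2, Scnn1g had 329 and 368 CPM in Ctrl ZT4, 545 and 310 CPM in Ctrl ZT16, 238 and 292 CPM in cKOt ZT4 and 349 and 382 CPM in cKOt ZT16 libraries. The ZT4 and ZT16 libraries overlapped, and the averaged time difference of 0.44 ± 0.14 was not called (adjusted p = 0.118, edgeR), although it was with no count filter, with 50 principal components and without replicate 2 of Ctrl ZT16, the lowest adjusted p being 0.0107 and the highest 0.489 over the alternatives. The share of DCT2 nuclei in the low Slc12a3 range was 33.5% to 38.9% in the ZT4 and 39.4% to 46.5% in the ZT16 libraries. Within the low range, Scnn1g had 464 to 671 CPM at ZT4 and 604 to 894 CPM at ZT16, which overlapped. Within the high range it had 111 to 217 CPM at ZT4 and 118 to 240 CPM at ZT16, which overlapped too. The part of the low-range share in the time difference was not tested.

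Slc12a3 did not pass in its own segments. In DCT1 it had 25068 and 24794 CPM in Ctrl ZT4, 26854 and 22870 CPM in Ctrl ZT16, 24477 and 23901 CPM in cKOt ZT4 and 24420 and 22737 CPM in cKOt ZT16 libraries. The Ctrl ZT16 libraries overlapped with every other group, while both Ctrl ZT4 libraries lay above the 4 cKOt libraries. The averaged differences were -0.01 for time (-0.25 to 0.23) and -0.06 for genotype (-0.30 to 0.18). In DCT2 the ZT16 libraries, with 9816 to 12378 CPM, lay lower than the ZT4 libraries, with 12238 to 13615 CPM, with an overlap between 12238 and 12378 CPM, and the time difference was -0.18 ± 0.10 (adjusted p = 0.432, edgeR). The genotype difference in DCT2 was 0.00, with an interval from -0.20 to 0.20.

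Slc12a1 in TAL ranged from 21262 to 24736 CPM in Ctrl and from 19434 to 23703 CPM in cKOt libraries. The averaged time difference was 0.01 (-0.23 to 0.24) and the genotype difference -0.03 (-0.27 to 0.20). In MD, with 11 to 33 nuclei per library, the levels ran from 15690 to 19299 CPM and the differences were 0.05 (-0.30 to 0.39) and -0.05 (-0.40 to 0.29). Changes within these intervals are compatible with the values of 2 mice per group, and the smallest change that could be called was not determined.

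Slc9a3 in TAL was highest in the Ctrl ZT4 libraries, with 686 and 663 CPM, while Ctrl ZT16 libraries had 487 and 509 CPM. In cKOt mice the ZT4 libraries gave 497 and 496 CPM, the ZT16 libraries 501 and 418 CPM. The 2 Ctrl ZT4 libraries thus lay above all others, but no difference was called by edgeR: ZT16 against ZT4 in Ctrl mice was -0.42 ± 0.13 (adjusted p = 0.145), cKOt against Ctrl at ZT4 was -0.45 ± 0.13 (adjusted p = 0.224), and the interaction was 0.32 ± 0.18 (adjusted p = 0.9996). Both comparisons share the Ctrl ZT4 libraries.

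In PCT, Slc9a3 had 425 and 454 CPM in Ctrl ZT4, 417 and 293 CPM in Ctrl ZT16, 247 and 348 CPM in cKOt ZT4 and 371 and 304 CPM in cKOt ZT16 libraries. The genotype difference at ZT4 was -0.58 ± 0.20 (adjusted p = 0.383, edgeR) and that averaged over times -0.31 ± 0.14. The cluster with the largest share of PCT nuclei differed between groups: cluster 7 held 81.6% of them in Ctrl ZT4, cluster 17 41.8% in Ctrl ZT16, cluster 6 33.9% in cKOt ZT4 and cluster 5 63.2% in cKOt ZT16. Their Slc9a3 levels were 441, 380, 282 and 321 CPM. Likewise PST was cluster 19 in Ctrl mice (91.1% and 94.6%) and cluster 13 in cKOt mice (95.5% and 99.8%), and its Slc9a3 had averaged differences of -0.38 (-0.98 to 0.22) for time and 0.40 (-0.20 to 1.01) for genotype. In iPT, Slc9a3 had 184 to 436 CPM in Ctrl and 204 to 360 CPM in cKOt libraries, and its clusters differed by genotype too, with cluster 4 holding 56.2% and 99.1% of iPT nuclei in cKOt mice (ZT4 and ZT16) but 3.62% and 1.72% in Ctrl mice. In thinDL the cKOt libraries had 522 to 999 CPM and the Ctrl libraries 536 to 743 CPM, with an averaged genotype difference of 0.32 (-0.03 to 0.68).

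Outside their segments, the members had 54 to 58 tests in other classes per contrast. Over the 7 contrasts 12 of these tests passed, while 0.428% of all tests in 14 classes passed. Of the 12 that passed, 11 were of Slc12a3, in PST, CNT, CCD, aIC and bIC, and 1 of Slc12a1, in thinDL. In CNT Slc12a3 differed by -1.88 ± 0.31 between ZT16 and ZT4 in Ctrl mice (adjusted p = 0.00138, edgeR), with 234 CPM on average at ZT4 and 60.8 CPM at ZT16, and in aIC by 2.51 ± 0.36 (adjusted p = 3.62e-05), with 104 and 568 CPM. In the libraries with the most Slc12a3, few nuclei held most of its UMIs, and their part in the differences was not tested. In CNT the 3 libraries with the most Slc12a3, among them both of Ctrl ZT4, each had 1 nucleus with between 92 and 125 of the library's 129 to 168 Slc12a3 UMIs. In aIC, 3 nuclei held 333 of 357 UMIs in replicate 2 of Ctrl ZT16. The 1% of nuclei with the most Slc12a3 held 76.3% of its UMIs in PST, 55.7% in CNT, 52.5% in CCD, 71.9% in aIC and 74.1% in bIC, against 2.74% in DCT1.

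Without nuclei that held 10 or more Slc12a3 UMIs, the libraries had 34.5 to 42.0 CPM in PST, 53.1 to 87.0 CPM in CNT, 54.3 to 83.2 CPM in CCD, 56.3 to 120 CPM in aIC and 38.1 to 82.5 CPM in bIC. In CNT the Ctrl libraries then gave 59.9 and 61.5 CPM (ZT4), then 68.4 and 53.1 CPM (ZT16), and in aIC 58.8 and 61.3 CPM (ZT4), then 56.3 and 57.9 CPM (ZT16). Nuclei were left out by the same counts that were compared, so lower and more even levels follow in part from the choice. In PST 76.1% of Slc12a3 UMIs were in nuclei called doublets, in bIC 52.7%, in CCD 49.9%, in aIC 19.2% and in CNT 2.44%. In thinDL, Slc12a1 had 180 to 1426 CPM in cKOt and 247 to 329 CPM in Ctrl libraries, and 180 to 326 CPM in cKOt libraries once 4 nuclei with 10 or more UMIs were left out.

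**Figure D5:**
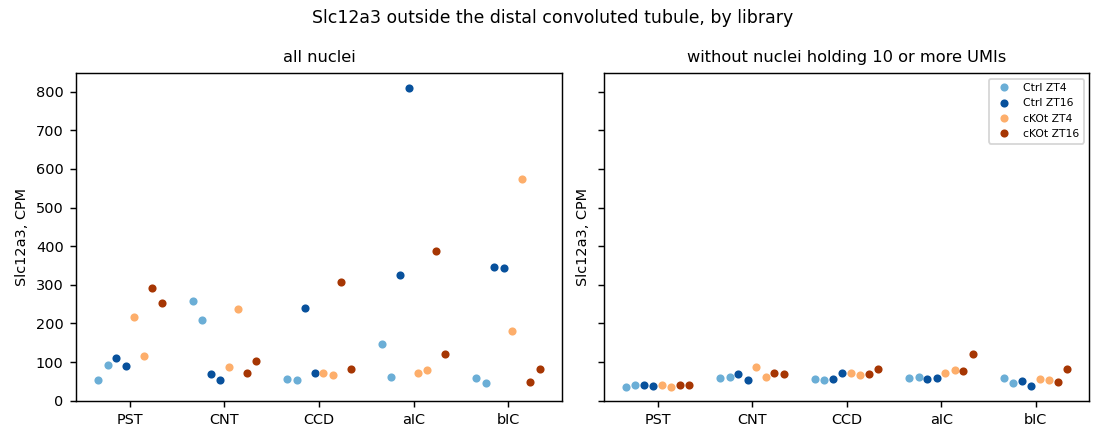
CPM of Slc12a3 in PST, CNT, CCD, aIC and bIC, 1 point per library, with all nuclei on the left and without nuclei holding 10 or more Slc12a3 UMIs on the right. On the left libraries reach 809 CPM, and on the right the highest has 120 CPM.

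Genes known to act with the transporters were followed in lists, chosen with earlier results of these data known. The 12 NCC partners, with the kinase genes Wnk1, Wnk4 and Stk39, gave 24 tests in DCT1 and DCT2 in each contrast, of which none passed in any contrast, where 0.0262% to 1.3% of all gene and segment tests passed. Of the 12 NKCC2 partners in TAL, 2 rose at ZT16 on average and 1 fell in cKOt mice, beside 1.3% and 0.733% of all gene and segment tests. The list median was 0.16 for time and -0.09 for genotype, beside 0.00 over all genes in each. Umod, which encodes uromodulin, a protein that TAL cells secrete, had 2871, 2957, 3859 and 3637 CPM in the Ctrl ZT4 and ZT16 libraries and 1715, 1912, 2429 and 2340 CPM in the cKOt libraries. It was lower in every cKOt library, with an averaged log2 difference of -0.68 ± 0.09 (adjusted p = 0.00109, edgeR), and higher at ZT16 by 0.39 ± 0.09 (adjusted p = 0.0288). Umod was one of the TAL markers. Bsnd, the β subunit of the basolateral chloride channels, was higher at ZT16 by 0.40 ± 0.10 (adjusted p = 0.0427), with 55.0 to 63.4 CPM at ZT4 and 70.3 to 94.2 CPM at ZT16. The call of Bsnd was lost in 8 of 16 alternatives (adjusted p up to 0.174), among them DESeq2 and leaving out any library other than replicate 2 of Ctrl ZT16. That of Umod for time was lost in 6 of 16 (adjusted p up to 0.126), which left out a ZT4 or a cKOt ZT16 library.

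Of the NHE3 partners, 22 tests in PCT and PST gave 1 rise with time (1.3% of all gene and segment tests passed) and 1 with genotype (0.733% passed). Car4, a carbonic anhydrase of the luminal membrane, had 15.9 to 30.3 CPM at ZT4 and 39.0 to 55.7 CPM at ZT16 in PCT, an averaged difference of 0.96 ± 0.18 (adjusted p = 0.0338, edgeR). This call was lost in 8 of 16 alternatives (adjusted p up to 0.119), among them leaving out any library other than replicate 1 of Ctrl ZT4 or of cKOt ZT4. Agtr1a, the angiotensin II receptor, had 33.3 to 41.2 CPM in Ctrl and 55.7 to 64.0 CPM in cKOt libraries in PST, a difference of 0.68 ± 0.12 (adjusted p = 0.0216). It was lost in 7 of 17 alternatives (adjusted p up to 0.105), among them leaving out any Ctrl or cKOt ZT16 library. The clusters that made up PCT and PST differed between groups as given above.

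Of the ENaC regulators, 48 tests in DCT2, CNT, CCD and MCD gave 3 rises and 1 fall at ZT16 on average, where 1.3% of all gene and segment tests passed, and 1 fall in cKOt mice, where 0.733% passed. Sgk1, the aldosterone-induced kinase that keeps ENaC at the membrane, fell in CCD of Ctrl mice from 212 and 132 CPM (ZT4) to 32.5 and 55.6 CPM (ZT16), a log2 difference of -1.95 ± 0.35 (adjusted p = 0.0142, edgeR). In cKOt mice it had 54.5 and 136 CPM (ZT4), then 43.3 and 51.7 CPM (ZT16), and the averaged difference was -1.5 ± 0.26 (adjusted p = 0.00845). Without replicate 2 of cKOt ZT4 the averaged difference was -1.08 (adjusted p = 0.270), and without replicate 1 of Ctrl ZT4 or of Ctrl ZT16 that in Ctrl mice was not called (adjusted p = 0.227 and 0.359). Tsc22d3, which encodes the glucocorticoid-induced protein GILZ, rose in DCT2 of Ctrl mice from 57.8 and 29.6 CPM (ZT4) to 112 and 144 CPM (ZT16) (1.59 ± 0.29, adjusted p = 0.00802), and had 79.9 and 41.7 CPM (ZT4), then 88.7 and 77.7 CPM (ZT16) in cKOt mice, with an averaged difference of 1.04 ± 0.20 (adjusted p = 0.00637). Without replicate 2 of Ctrl ZT4 neither was called (adjusted p = 0.184 in Ctrl mice and 0.0519 on average), and without replicate 2 of Ctrl ZT16 that in Ctrl mice was not (adjusted p = 0.0848). No ENaC regulator was called for the interaction of genotype and time (0.0262% of all gene and segment tests), so the time differences were not shown to differ between genotypes. In CNT, where Scnn1g was higher at ZT16, Wnk1 was higher by 0.70 ± 0.13 (adjusted p = 0.00337) and Hsd11b2 by 0.59 ± 0.14 (adjusted p = 0.0226). Hsd11b2 had 298 to 574 CPM at ZT4 and 533 to 906 CPM at ZT16 and was one of the CNT markers. Fxyd4, an FXYD family regulator of ion transport, was lower in cKOt mice in CNT, with 107 to 211 CPM in Ctrl and 50.0 to 97.4 CPM in cKOt libraries, a difference of -0.93 ± 0.19 (adjusted p = 0.00854). It was a marker of CCD and MCD, and the part of nuclei or RNA from those classes was not tested. Of these 3 calls in CNT, Hsd11b2 was lost in 6 of 16 alternatives (adjusted p up to 0.140), Fxyd4 in 5 (up to 0.203) and Wnk1 in 2 (up to 0.0612), which left out 1 library each but for DESeq2 with Hsd11b2 and Fxyd4.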

How the data were processed

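Nuclei from 8 mouse kidneys were stained with DAPI, sorted and sequenced by the authors with a 3′ droplet kit. The deposited files hold UMI counts per gene and barcode, made with Cell Ranger 7.1.0 and bcl2fastq 2.20 per the submitters' processing notes, which name GRCm39 while the methods name an mm10 reference. The use of introns and of strand in counting was not stated there.

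The filter of the methods (500 genes, 800 UMIs, no more than 2% mitochondrial) kept 98.3% of barcodes, and libraries were not integrated. Libraries held 36548873 to 54500820 UMIs. Scrublet (scanpy 1.11.5; 8% doublets expected) marked 4367 nuclei (5.37%) as doublets, which stayed in the main results and were left out in an alternative; clusters in which over 50% of nuclei were marked stayed unnamed. Nuclei were clustered with Seurat 5.3.0 on 1000 principal components of protein-coding genes with the 6 members left out. A cluster was named from its markers, by a mean z of at least 0.9 and at least 3 markers 2-fold up. The separation of the intermediate proximal clusters from PST was set after the clusters were seen. Thinning to 1000 UMIs left out 1141 nuclei. Biotypes and overlaps were taken by gene identifier, and promoters by symbol from RefSeq.

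UMIs of protein-coding genes were summed per library and class and tested with edgeR 4.0.16 (R 4.3.3, quasi-likelihood, TMM, at least 5 counts in both replicates of a compared group), with 1 model of all 4 groups per class and at least 10 nuclei per library. Differences were averaged over genotypes or times, or taken within one. An adjusted p under 0.05 is a call. Tests were also run on simulated counts for DCT2 and TAL only, with a single dispersion of 0.05 for all genes and 200 changed genes. The outcome is not given here. Alternatives were DESeq2 1.42.0, other size factors, no count filter, all genes, doublets removed, 50 principal components, members among the clustering genes, a replicate block and each library left out.

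The members and lists were chosen with earlier results of these data known. The text names the 6 members, every list gene called in a segment of its list (at most 6 per list, but all 8 clock genes) and the 3 genes closest to each member. The methods state 1 mouse per library. One list of genes is not reported here.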

Additional observations from a re-analysis of the deposited data

Results flagged for a closer look

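Slc12a3 in β-intercalated cells (bIC) had a time difference in cKOt mice that was lower than that in Ctrl mice by an interaction of -5.23 on the log2 scale (SE 0.54, adjusted p = 2.17e-05, edgeR). The group means were 52.3 CPM in Ctrl ZT4, 345 CPM in Ctrl ZT16, 378 CPM in cKOt ZT4 and 65.9 CPM in cKOt ZT16. Of the 989 bIC nuclei, 8 held 10 or more Slc12a3 UMIs each: 3 and 2 in the Ctrl ZT16 libraries, 1 and 2 in the cKOt ZT4 libraries and 0 in the others. Without them the 8 libraries had 38.1 to 82.5 CPM, which follows in part from leaving nuclei out by the count that was compared. Of the Slc12a3 UMIs in bIC, 52.7% were in nuclei called doublets.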

How the results depend on the processing

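With 2 mice per group, the counts and main levels stayed within the limits set for them in 250 recomputed values and moved in 9. The other recomputed values were tests of single genes and levels of members in further segments. Of these 530 stayed the same, 62 lost a call, 5 gained one and 0 reversed. The 530 include levels, which have no call, and tests that were not called in the main results, so they do not measure how stable the calls were. The number of called pairs of member and segment for time averaged over genotypes was 1, became 2 with no count filter and 2 with 50 principal components, and ran from 0 to 1 when each library was left out. With no count filter 1 pair was called for time in cKOt mice and 1 for genotype at ZT16. The highest Scnn1a level along the nephron, in CCD, was 355 CPM and became 368 CPM with doublets removed and 363 CPM with 50 principal components, beyond an SD of 5.99 CPM. With the intermediate clusters counted as PST, an alternative chosen after seeing the data, Slc9a3 in PST had a genotype difference at ZT16 of -0.11 in place of 0.90 (neither called), and Agtr1a was no longer called (adjusted p = 0.0840, edgeR). Of the regulators, calls of Car4 and Bsnd were lost in 8, Hsd11b2 and Umod (time) in 6, Fxyd4 (genotype on average) in 5, Wnk1, Sgk1 and Tsc22d3 (the last 2 in Ctrl mice) in 2 and Umod (genotype on average) in 0 of 16 alternatives, and that of Agtr1a in 7 of 17. The labels do not say what replicate numbers share: deviations of same-numbered libraries correlated between 0.08 and 0.43 for Ctrl and cKOt mice of one time point, as a hint from the data, and between -0.29 and 0.20 across time points. The replicate block joined same-numbered libraries over both time points. With it, 1 pair was called for time averaged over genotypes, as without it, and 0 in the other contrasts. A block of same-numbered libraries within a time point was not fitted. The causes of these changes were not tested.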

Other observations

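Some values of the ENaC subunits in classes outside the 20 pairs add to those above. Scnn1a in DCT1 had an averaged genotype difference of -0.35 ± 0.13 and a time difference of 0.29 ± 0.13 on the log2 scale, and neither was called (adjusted p = 0.405 and 0.255, edgeR), with 172 to 326 CPM in Ctrl and 179 to 189 CPM in cKOt libraries. In urothelium (836 nuclei), Scnn1a, Scnn1b and Scnn1g had Ctrl means of 92.0, 101 and 78.0 CPM, all above the vascular level. In aIC, Scnn1b had 204 to 323 CPM in Ctrl and 189 to 261 CPM in cKOt libraries.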
